A study of Mus musculus with 20 samples.

Results

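Chromatin at 10 genes of the smooth muscle contractile apparatus was examined in a mouse mammary epithelial cell line, Comma-Dβ. These genes, of 21887 protein-coding genes placed on the numbered chromosomes, X and Y, were chosen by name for their part in myoepithelial contraction: Acta2, Actg2, Myh11, Mylk, Cnn1, Cnn2, Tagln, Oxtr, Lmod1 and Cald1. Chromatin immunoprecipitation followed by sequencing (ChIP-seq) had been done in 5 groups of 4 biological replicates: input chromatin, the transcription factor HEB, and the histone marks H3K4me3, H3K27ac and H3K27me3. All groups were the same cells at passage 28, with no treatment named in the labels, grown in DMEM/F12 with 2% serum, insulin and epidermal growth factor. One deposited peak list per antibody was analysed, so no value below has an error between replicates, read depth is unknown, and no test was made. The labels do not say whether the line is a single clone.

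Myoepithelial cells form the basal layer of the mammary epithelium and squeeze milk from the alveoli when oxytocin reaches them. Like smooth muscle, they pull with actin filaments and a smooth muscle myosin, which is switched on by phosphorylation of its light chain and restrained by proteins that sit on the thin filament. In smooth muscle many of these genes are driven by serum response factor (SRF), which binds a short sequence called the CArG box, together with partners of the myocardin family. HEB, encoded by Tcf12, is an E protein, a basic helix-loop-helix transcription factor that binds E-boxes. Active enhancers and promoters carry H3K27ac, promoters carry H3K4me3, and Polycomb complexes place H3K27me3 on genes that are kept silent. A mark on chromatin is not a measure of RNA.

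The 10 genes did not share one chromatin state. Cald1, Cnn2 and Acta2 carried H3K27ac and H3K4me3 with no H3K27me3. Actg2 and Myh11 carried H3K27me3 alone, and Oxtr carried H3K27me3 with H3K4me3 inside it. Cnn1 had H3K27me3 at its start and 1 small H3K27ac peak near its far end, and Tagln had no peak of any mark. Lmod1 and Mylk had H3K27ac and H3K27me3 peaks that shared no base, and 1 H3K4me3 peak each, which lay inside an H3K27ac peak and, at Lmod1, just beyond the far end of the gene.

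RefSeq promoter windows (assembly GRCm38.p6, whose chromosomes mm10 shares) were found for 7 of the 10 genes, as 8 windows of 300 bases that run from 250 bases before the start to 50 after it. Actg2, Myh11 and Tagln were not matched. The first 4 sequences are shown because they hold a CArG box, or a match to it with 1 mismatch, in capitals, and because their starts lie in different chromatin: Cnn2, Acta2 and Cald1 in H3K27ac and H3K4me3, Lmod1 in H3K27me3. All are written 5′ to 3′ on the strand of the gene.
Cnn2 (chr10:79988350-79988649, plus strand): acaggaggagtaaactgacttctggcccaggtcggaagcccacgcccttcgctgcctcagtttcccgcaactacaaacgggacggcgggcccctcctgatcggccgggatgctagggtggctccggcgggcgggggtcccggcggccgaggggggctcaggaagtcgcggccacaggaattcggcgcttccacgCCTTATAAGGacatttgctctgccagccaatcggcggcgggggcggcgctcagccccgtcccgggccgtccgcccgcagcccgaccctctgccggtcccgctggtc
Acta2 (chr19:34255324-34255623, minus strand): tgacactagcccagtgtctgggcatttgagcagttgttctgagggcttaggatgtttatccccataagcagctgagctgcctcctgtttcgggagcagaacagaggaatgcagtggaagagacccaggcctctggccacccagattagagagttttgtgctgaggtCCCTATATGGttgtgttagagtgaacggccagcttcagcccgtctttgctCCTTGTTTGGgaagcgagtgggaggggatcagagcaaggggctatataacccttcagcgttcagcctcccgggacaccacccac
Cald1, upstream start (chr6:34598254-34598553, plus strand): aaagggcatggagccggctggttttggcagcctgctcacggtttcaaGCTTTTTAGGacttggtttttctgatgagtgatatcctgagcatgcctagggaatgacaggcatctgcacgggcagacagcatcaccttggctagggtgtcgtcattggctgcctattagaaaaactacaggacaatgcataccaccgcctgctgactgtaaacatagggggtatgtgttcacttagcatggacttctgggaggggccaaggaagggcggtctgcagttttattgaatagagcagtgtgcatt
Lmod1 (chr1:135324563-135324862, plus strand): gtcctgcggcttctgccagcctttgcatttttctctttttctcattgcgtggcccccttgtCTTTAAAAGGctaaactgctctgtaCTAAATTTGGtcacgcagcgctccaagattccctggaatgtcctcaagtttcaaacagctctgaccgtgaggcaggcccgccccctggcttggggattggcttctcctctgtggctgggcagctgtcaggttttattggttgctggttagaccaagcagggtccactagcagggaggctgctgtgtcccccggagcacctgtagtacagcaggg

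A CArG box with no mismatch was found in 1 of the 7 genes, Cnn2, 56 bases upstream of its start (CCTTATAAGG), and 1.76% of 17492 protein-coding genes with a window held one. With 1 mismatch allowed, 4 of the 7 had a match, against 22.5% of all genes with a window. Acta2 had 2 such matches, 84 and 34 bases upstream of the start (CCCTATATGG and CCTTGTTTGG), and these are the letters of the CArG elements long studied in that promoter. Lmod1 also had 2, 189 and 164 bases upstream (CTTTAAAAGG and CTAAATTTGG), and Cald1 had 1, 203 bases upstream of its upstream start (GCTTTTTAGG). Distances run from the RefSeq start used here to the first base of the match, and another start would give other distances. The pattern reads the same on both strands, so each match was counted once. A match is a description of the letters and not a site of binding.

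E-boxes, the motif CANNTG on either strand, were in the windows of 6 of the 7 genes, all but Mylk, against 72.1% of all genes with a window. The narrower forms CAGCTG and CAGGTG, searched on both strands and contained in the first motif, were in 3 of the 7 (Acta2, Oxtr and Lmod1), against 34.8%. Cnn2, the member with an HEB site inside it, had 1 E-box in its window (CATTTG, 45 bases upstream of the start), and the HEB site itself lay outside that window.

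The next pair of windows is shown with each CG dinucleotide (CpG) in capitals, because the 2 starts had different marks. The start of Oxtr lay under H3K4me3 and H3K27me3 without H3K27ac. The annotated start of Mylk, which is inside the gene and not at its upstream end, lay under H3K27ac without either.
Oxtr (chr6:112489776-112490075, minus strand): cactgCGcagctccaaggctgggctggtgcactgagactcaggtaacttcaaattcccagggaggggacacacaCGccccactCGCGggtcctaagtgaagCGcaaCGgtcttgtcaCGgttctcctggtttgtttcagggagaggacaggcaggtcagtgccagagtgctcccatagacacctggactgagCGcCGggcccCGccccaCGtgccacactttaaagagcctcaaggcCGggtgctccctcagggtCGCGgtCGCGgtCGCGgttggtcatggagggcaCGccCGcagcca
Mylk (chr16:34784700-34784999, plus strand): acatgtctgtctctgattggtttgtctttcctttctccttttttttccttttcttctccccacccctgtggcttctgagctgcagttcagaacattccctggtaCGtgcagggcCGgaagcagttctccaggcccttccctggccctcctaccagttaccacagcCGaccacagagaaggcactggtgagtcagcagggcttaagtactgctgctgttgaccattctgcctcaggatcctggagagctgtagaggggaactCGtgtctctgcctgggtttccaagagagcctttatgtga

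Oxtr had 20 CpGs in 300 bases, and Mylk had 4. Across 21263 windows of protein-coding genes the median was 13. Cnn2 stood highest of the members with 33 CpGs, at the 89.3 percentile of all windows. The windows of Acta2 and Cnn1 and the upstream one of Cald1 had 6 each, that of Lmod1 had 7, and the downstream one of Cald1 had 5. Of the 8 windows, those of Cnn2 and Oxtr were therefore above the median, and H3K4me3 covered both, as it also covered the CpG-poor starts of Acta2 and Cald1.

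**Figure D1:**
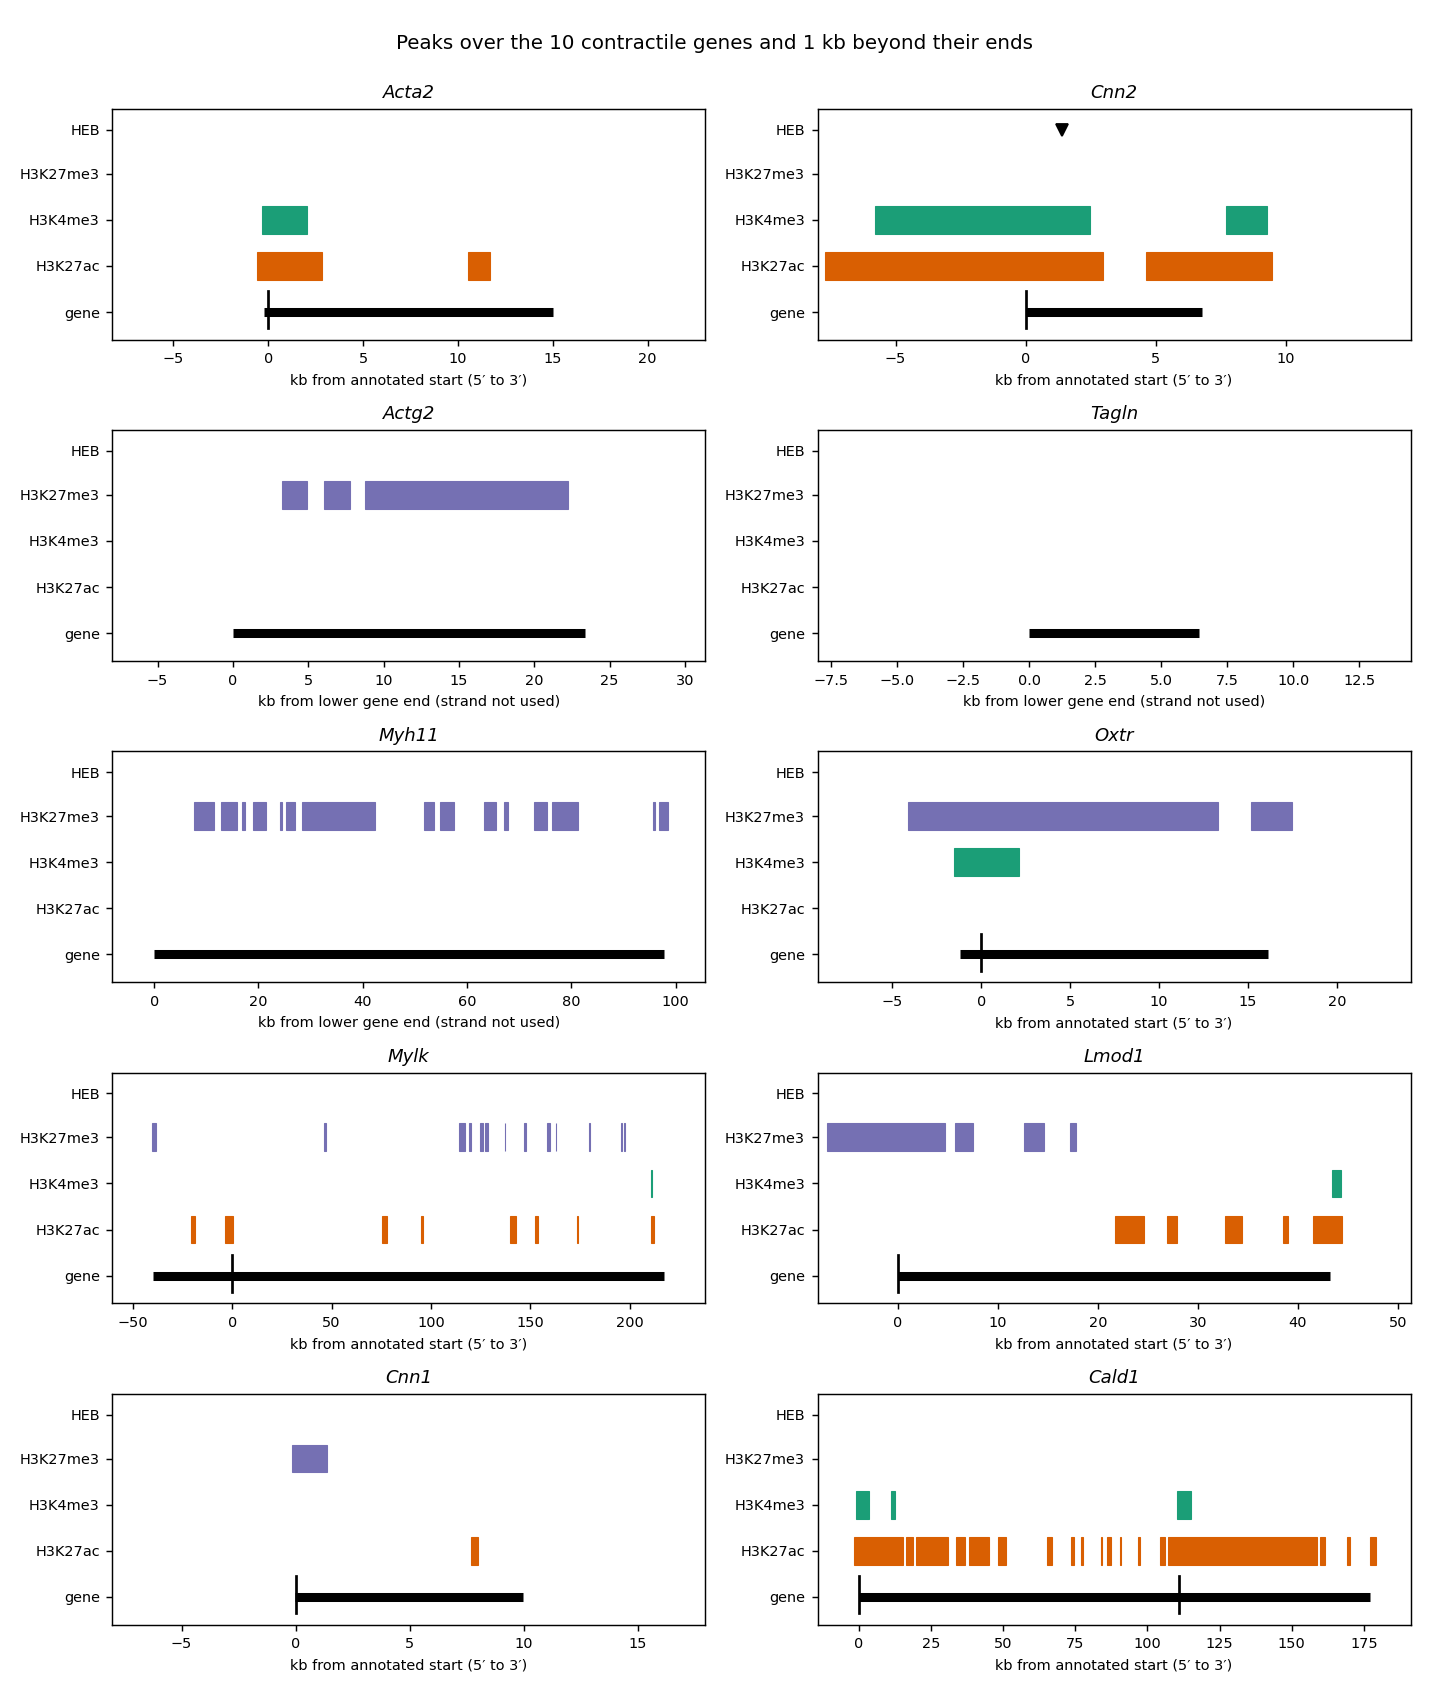
Each panel is 1 gene (black bar, with upright ticks at annotated starts) and plots every peak that touches the gene or the 1 kb beyond its ends, as boxes for H3K27ac, H3K4me3 and H3K27me3, with a triangle for an HEB site on the gene; the horizontal axis is kb from the start, or from the lower gene end where strand was not used. H3K27ac boxes cover most of Cald1 and Cnn2, with H3K4me3 boxes over smaller parts of them, Actg2 and Myh11 hold H3K27me3 boxes alone, Tagln has no box, and in Lmod1 the H3K27me3 boxes lie before the H3K27ac boxes.

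Counted over the gene and 1 kb beyond its ends, at an overlap of 1 bp or more, H3K27ac was at 6 of the 10 genes (63.2% of all protein-coding genes), H3K4me3 at 6 (61.2%) and H3K27me3 at 6 (37.5%). Within 1 kb of a start, or of either gene end for the 3 genes without a window, H3K27ac was at 4 of 10 (52.6% of all), H3K4me3 at 4 (57.1%) and H3K27me3 at 4 (28.9%). For Mylk only the annotated start inside the gene was used, so an H3K27me3 peak at its upstream end does not count here. The counts for the active marks lay near or below the background. Those for H3K27me3, 6 of 10 against 37.5% and 4 of 10 against 28.9%, differed from it by few genes, and the difference was not tested. H3K27me3 alone was at 2 of the 10 (17.9% of all genes), 2 had all 3 marks (11.5%) and 1 had none (13.9%). Long genes have more room for a peak, and the median length was 20.3 kb in the members and 17.2 kb in all genes.

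The H3K27me3 evidence was weak at several members. Of the 38 H3K27me3 peaks on the members, 3 had a −log10 q of 5 or more, 1 each at Cnn1, Oxtr and Lmod1, so with such peaks 3 members in place of 6 had the mark. Of all protein-coding genes, 19.5% had such an H3K27me3 peak, in place of 37.5%. All 9 H3K4me3 peaks and 15 of 36 H3K27ac peaks passed the same threshold. In the whole lists 9.53% of H3K27me3 peaks, 87.8% of H3K4me3 peaks and 45.0% of H3K27ac peaks did. Fold enrichment and q of each peak are the authors' own values, and folds of different marks cannot be set on one scale.

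**Figure D2:**
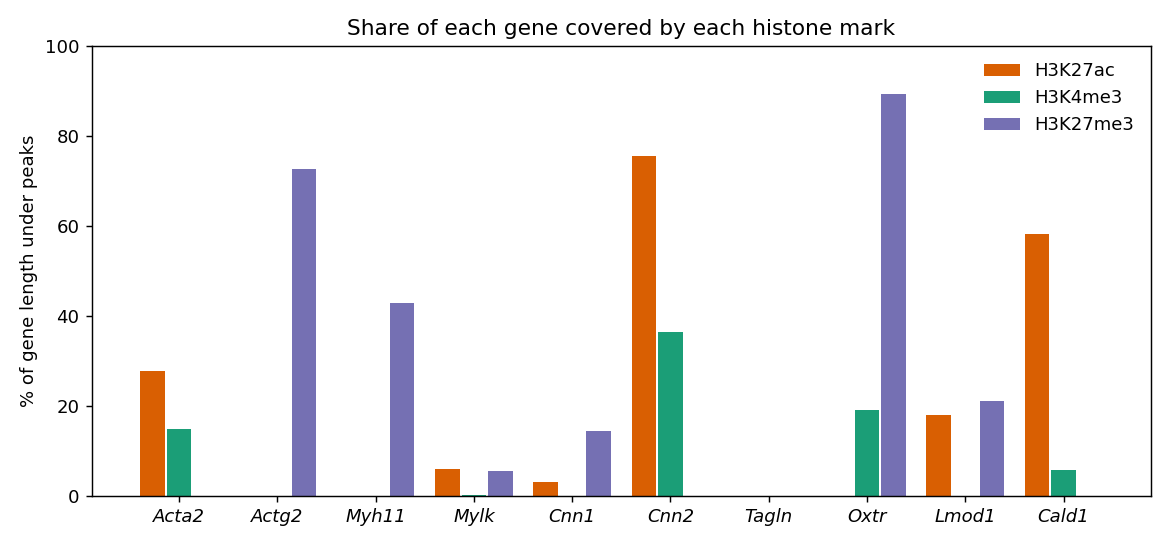
Bars give the percent of each gene's length that lies under peaks of H3K27ac, H3K4me3 and H3K27me3 (vertical axis, 0 to 100%), 1 gene per group of bars. Cnn2 (75.5%) and Cald1 (58.3%) have the tall H3K27ac bars, and Oxtr (89.2%), Actg2 (72.5%) and Myh11 (42.9%) the tall H3K27me3 bars.

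Acta2 and Actg2 encode the smooth muscle alpha and gamma actins, near-identical proteins, and different marks were called on their genes. Acta2 had both active marks, and Actg2 had only H3K27me3 peaks, all with a −log10 q below 5. Acta2 (chromosome 19, 34240336 to 34255585) had an H3K27ac peak of 3.43 kb from 0.585 kb upstream to 2.84 kb downstream of its start, with a fold of 4.07, and an H3K4me3 peak of 2.38 kb inside it with a fold of 6.54. A second H3K27ac peak of 1.16 kb lay 10.5 kb downstream of the start at a fold of 2.01. The H3K27ac peak at the start ranked at the 81.8 percentile of its list by fold, and the H3K4me3 peak at the 35.4 percentile of its own. The promoter of Acta2 thus had both active marks, with an H3K4me3 fold below the list's median of 12.9. No H3K27me3 peak came nearer to the gene than 36.6 kb.

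Actg2 (chromosome 6, 83512909 to 83536251) had no H3K27ac and no H3K4me3 peak, and 3 H3K27me3 peaks of 1.69, 1.77 and 13.5 kb. These covered 72.5% of the gene, at folds of 1.63, 1.76 and 2.01, and the strongest had a −log10 q of 4.31. Neither gene end had a peak within 1 kb: the widest H3K27me3 peak stopped 1.13 kb short of the upper end. Acetylated chromatin lay close by, with H3K27ac peaks 3.11 kb from the lower end and 5.16 kb from the upper end, at folds of 2.04 and 3.23.

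Myh11 encodes the smooth muscle myosin heavy chain, a textbook marker of differentiated smooth muscle. At Myh11 (chromosome 16, 14194527 to 14292188) there was no H3K27ac or H3K4me3 peak, and 15 H3K27me3 peaks from 0.290 to 13.9 kb wide covered 42.9% of the gene. Their folds ran from 1.61 to 2.03 around the list's median of 1.74, and none reached a −log10 q of 5, with 4.24 the highest of the 15. One of these peaks, 1.70 kb wide at a fold of 1.75, covered the upper gene end, and the lower end had none within 1 kb. The H3K27me3 calls at the myosin gene were thus 15 separate low peaks. Whether these are parts of a weak continuous domain was not tested.

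Mylk encodes the myosin light chain kinase, which switches smooth muscle myosin on, and its gene also makes a long non-muscle form of the kinase. The gene (chromosome 16, 34745199 to 35002436, 257 kb) had 8 H3K27ac peaks with folds of 2.05 to 3.08, 13 H3K27me3 peaks with folds of 1.60 to 2.08, and 1 H3K4me3 peak of 0.467 kb at a fold of 2.94. Base pairs shared between H3K27ac and H3K27me3 peaks were 0, where the 2 marks covered only 6.01% and 5.58% of the gene. The annotated start in the promoter window of Mylk, 34784950, lay under an H3K27ac peak of 3.76 kb (fold 2.57) that reached 3.42 kb upstream and 0.342 kb downstream. No H3K4me3 peak lay nearer to that start than 93.2 kb. The H3K4me3 peak on the gene was 211 kb downstream of that start, inside an H3K27ac peak of 1.28 kb. The lower gene end, which is upstream on the plus strand, carried an H3K27me3 peak of 1.98 kb at a fold of 2.08 (−log10 q 4.81).

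The calponins Cnn1 and Cnn2 and caldesmon (Cald1) bind actin filaments and restrain myosin. Cnn1 is the calponin typical of smooth muscle, and Cnn2 is found in many cell types. Cnn1 (chromosome 9, 22099221 to 22109221) had an H3K27me3 peak of 1.56 kb over its start, from 0.159 kb upstream to 1.40 kb downstream. Its fold of 2.70 was at the 98.4 percentile of the H3K27me3 list and its −log10 q was 10.7. H3K4me3 was absent from the gene, and the 1 H3K27ac peak, 0.310 kb wide and 7.71 kb downstream of the start, had a fold of 1.93 at the 18.2 percentile. When only peaks with a −log10 q of at least 5 were kept, Cnn1 had H3K27me3 alone.

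Cnn2 (chromosome 10, 79988600 to 79995400) had the reverse. An H3K27ac peak of 10.7 kb ran from 7.71 kb upstream to 2.96 kb downstream of its start at a fold of 6.62, the 95.6 percentile of the list. An H3K4me3 peak of 8.26 kb lay in it, at a fold of 16.6. Both peaks also reached the neighbouring gene Tmem259, so the marks cannot be given to one gene alone. A second H3K27ac peak, of 4.84 kb (fold 2.37), lay over the far end of Cnn2 and the lower end of Abca7. Inside it, an H3K4me3 peak of 1.56 kb (fold 18.8) touched Abca7 and not Cnn2. It was counted for Cnn2 because it lay within 1 kb of the end of that gene. H3K27ac covered 75.5% of Cnn2, at the 96.6 percentile of all genes, and the nearest H3K27me3 peak was 15.2 kb away.

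Cald1 (chromosome 6, 34598495 to 34775469) was acetylated over more of its length than any other member in kb, with 18 H3K27ac peaks that covered 103 kb, or 58.3% of the gene. It had 2 annotated starts, and both lay under strong active marks. At the upstream start (34598504) an H3K27ac peak of 17.1 kb had a fold of 5.49 and an H3K4me3 peak of 4.55 kb a fold of 21.1. At the downstream start (34709444) an H3K27ac peak of 51.5 kb had a fold of 5.05 and an H3K4me3 peak of 5.06 kb a fold of 19.5. The 2 starts thus differed little in fold, and the single H3K27ac peak called over each differed in width. The upstream one was closely followed by H3K27ac peaks of 2.3, 10.9, 3.00 and 6.78 kb, which ended 45.1 kb downstream of that start. Whether these are parts of one domain was not tested. Of the other H3K27ac peaks, those of 10.9, 6.78 and 3.00 kb had folds of 3.99, 4.48 and 3.04, and the remaining ones had folds of 1.77 to 2.13. No H3K27me3 peak lay nearer than 131 kb.

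Tagln encodes transgelin (SM22 alpha), an actin-binding protein whose promoter is widely used to drive genes in smooth muscle. Across Tagln (chromosome 9, 45929628 to 45936058) and the 1 kb beyond its ends there was no peak of any of the 3 marks. The nearest H3K27ac peak lay 14.0 kb away (0.268 kb wide, fold 2.04), the nearest H3K4me3 peak 17.2 kb away, and the nearest H3K27me3 peak 169 kb away. Strong acetylation was found further out, with a peak of 1.87 kb at a fold of 6.58 where the genes Rnf214 and Pcsk7 meet, 22.0 kb from Tagln, and one of 11.5 kb at Bace1 at 75.4 kb. Tagln overlaps Pcsk7, so the absence of peaks also holds for that shared stretch.

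Lmod1 encodes leiomodin 1, which starts new actin filaments in smooth muscle, and its gene was divided. On Lmod1 (chromosome 1, 135324813 to 135368065) an H3K27me3 peak of 11.8 kb covered the start, from 7.02 kb upstream to 4.74 kb downstream, at a fold of 2.30 and a −log10 q of 7.18. It was followed by 3 weaker H3K27me3 peaks (folds of 1.82, 1.69 and 1.68), the last ending 17.8 kb downstream. From 21.7 kb downstream the gene held 5 H3K27ac peaks and no H3K27me3 peak. The first of them, 2.91 kb wide, had a fold of 6.55, at the 95.4 percentile of the list, and the one at 32.7 kb a fold of 4.41. No H3K4me3 peak lay on the start, where the nearest was 10.3 kb away, and the one counted for Lmod1 (0.852 kb, fold 5.78) lay 0.183 kb beyond the far end of the gene. The most strongly acetylated chromatin of Lmod1 was therefore inside the gene and away from its start.

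Oxtr encodes the oxytocin receptor, the receptor through which milk let-down is signalled. Most of Oxtr (chromosome 6, 112473683 to 112491035) lay under an H3K27me3 peak of 17.5 kb, which reached 4.15 kb upstream and 13.3 kb downstream of the start at a fold of 2.73 and a −log10 q of 14.0. That fold stood at the 98.6 percentile of the H3K27me3 list. An H3K4me3 peak of 3.62 kb lay wholly inside it, with all 3622 bp shared, at a fold of 3.35, the 22.5 percentile of the H3K4me3 list. H3K27ac was absent, the nearest peak being 6.23 kb from the gene at a fold of 2.41. A second, weaker H3K27me3 peak of 2.31 kb (fold 1.76) bridged the downstream end of Oxtr and the upper end of Cav3, a muscle caveolin gene. Both marks in one place can come from the same chromosomes or from different cells, and in bulk chromatin these cannot be told apart.

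**Figure D3:**
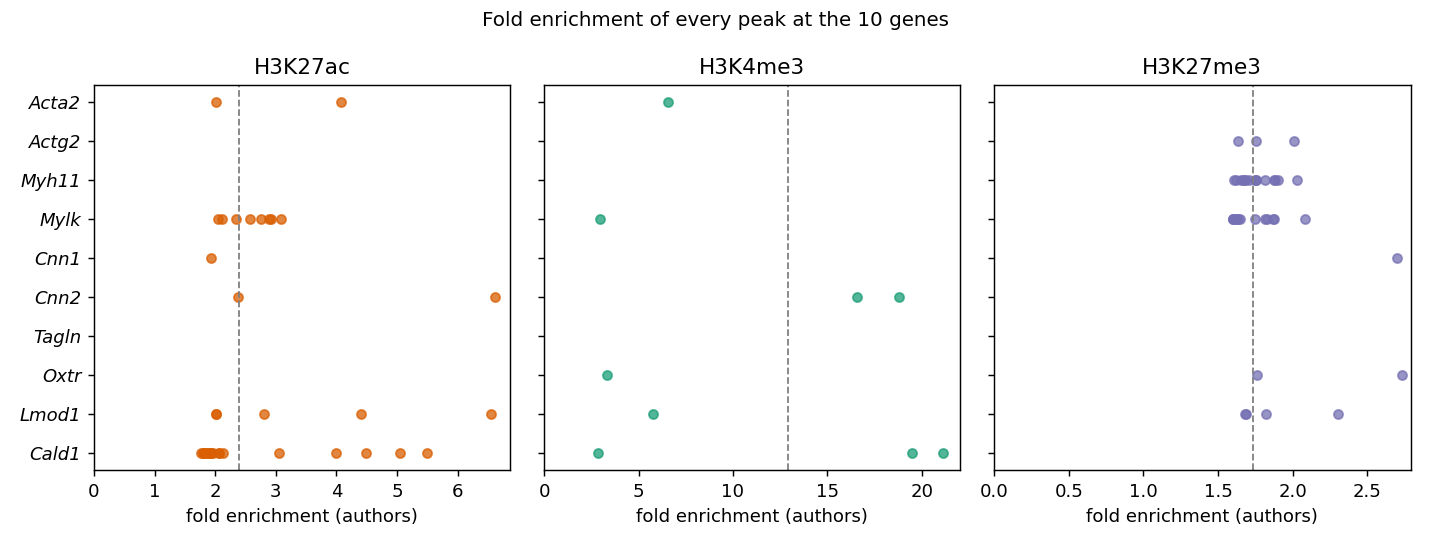
Points are single peaks touching each gene or the 1 kb beyond its ends, with the authors' fold enrichment on the horizontal axis, 1 panel per mark with its own scale, and a dashed line at the median fold of the whole list (2.39 for H3K27ac, 12.9 for H3K4me3, 1.74 for H3K27me3). The H3K4me3 points of Cnn2 and 2 of the 3 of Cald1 lie right of the line and all others left of it, while the H3K27me3 points of Cnn1, Oxtr and Lmod1 reach 2.70, 2.73 and 2.30.

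The surroundings of the members were then described by H3K27ac within 100 kb of each gene. In all, 152 peaks lay in these windows, from 6 at Oxtr to 27 at Cald1, with a median of 15.5 per member against 9 over all protein-coding genes. As a share of the gene and the 100 kb on each side, H3K27ac covered 39.0% at Cnn2, 34.6% at Cald1, 18.3% at Actg2, 16.7% at Lmod1, 15.2% at Acta2, 13.6% at Tagln, 11.2% at Myh11, 5.47% at Cnn1, 4.92% at Mylk and 3.90% at Oxtr. The median of the 10 was 14.4%, against 5.97% over all protein-coding genes, and 7 of the 10 were above that median. Windows at gene-rich places hold the promoters of other genes, and the part this played was not tested.

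Actg2, Myh11 and Tagln had no H3K27ac within 1 kb of the gene, and 17, 12 and 10 peaks within 100 kb. At Actg2 the peak with the highest fold (8.92) was 54.3 kb away and touched Tet3, a gene for a DNA demethylation enzyme. For Myh11 the highest, 8.92 as well, lay 58.0 kb away and within 1 kb of no protein-coding gene. Oxtr had the sparsest surroundings, where the highest fold of 6 peaks was 2.69, at 52.1 kb. For 2 of the 10, Acta2 and Lmod1, the peak with the highest fold in the window lay on the gene itself. At Cald1 it lay 4.39 kb away at Agbl3 (fold 8.19), and at Cnn2 it lay 74.2 kb away at Sbno2 (7.96), although both genes were acetylated themselves.

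**Figure D4:**
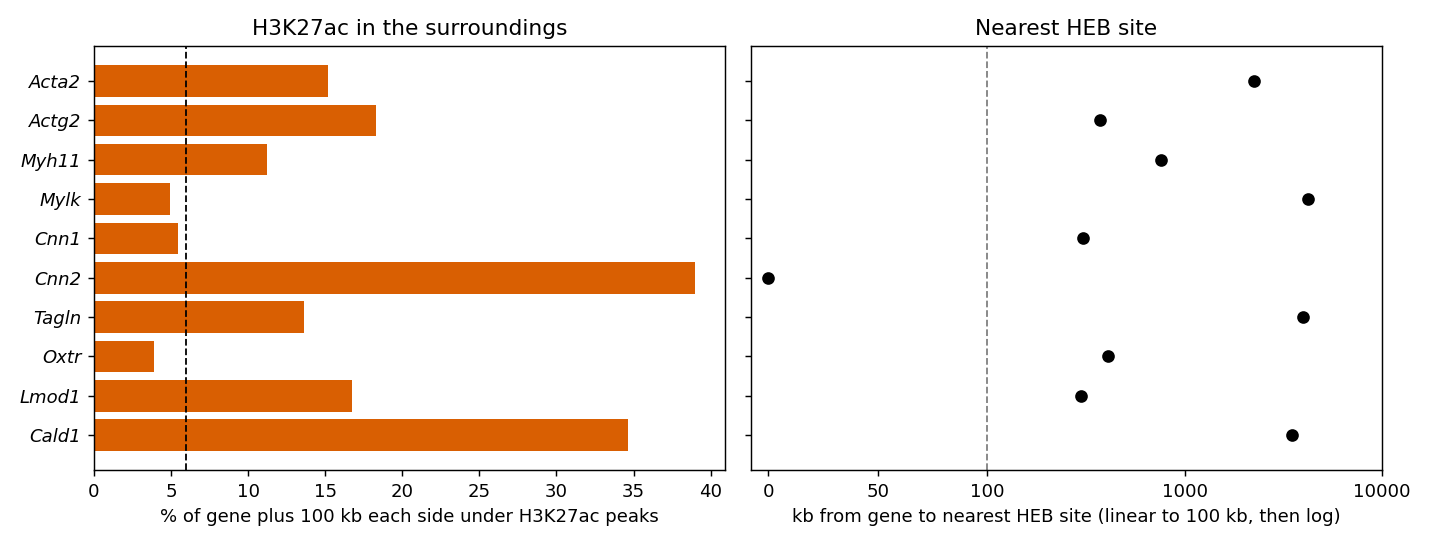
Left, bars give the percent of each gene and the 100 kb on each side that lies under H3K27ac peaks, with a dashed line at the median of all protein-coding genes (5.97%). Right, points give the distance in kb from each gene to the nearest HEB site, on an axis that is linear to 100 kb (dashed line) and logarithmic beyond; Cnn2 sits at 0 and the other 9 genes lie beyond 100 kb.

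HEB sites lay within 100 kb of 1 of the 10 genes, Cnn2, against 12.0% of all protein-coding genes. One of its 3 sites was inside the gene (chromosome 10, 79989780 to 79990234), from 1.18 to 1.63 kb downstream of the start, within both the H3K27ac and the H3K4me3 peak of the promoter. The other two (79932575 to 79933243 and 79934086 to 79934736) were 55.4 and 53.9 kb from Cnn2 and lay in Arid3a, a gene for a DNA-binding protein. Of these, the first touched a weak H3K27ac peak (fold 1.79) and the second touched no mark. Cnn2 is in a gene-dense stretch, and the site inside it had 14 protein-coding genes within 100 kb, itself included. Within 10 kb the count was again 1 member, against 2.86% of all genes.

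For the other 9 genes the nearest HEB site was 300 kb from Lmod1 (in Nav1), 306 kb from Cnn1 (in Kank2), 375 kb from Actg2 (in Rtkn), 409 kb from Oxtr (in Srgap3) and 761 kb from Myh11. It was 2241 kb from Acta2, 3498 kb from Cald1, 3978 kb from Tagln and 4231 kb from Mylk. The median distance was 585 kb over the 10 members and 839 kb over all protein-coding genes. Cald1 and Acta2, with active starts, were thus farther from an HEB site than that median, as were Tagln and Mylk.

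A wider list of 33 genes, mostly of contraction, actin regulation and SRF signalling, gives the setting. It also holds genes outside these groups, such as Cav1, Itga8 and Ltbp2, and its difference from the members was not tested. H3K27ac was at 29 of the 33 genes and H3K4me3 at 30, where all protein-coding genes had 63.2% and 61.2%, and H3K27me3 was at 9, where all had 37.5%. Both active marks lay within 1 kb of a start or gene end at 25 of the 33 and at 3 of the 10 members, where 49.5% of all protein-coding genes had both. The 4 with the longest H3K27ac cover were Mrtfa, a myocardin family coactivator of SRF (96.7 kb, H3K4me3 fold 51.4), Filip1l (56.6 kb), the alpha-actinin gene Actn1 (54.3 kb) and Ltbp2, a latent TGF-beta binding protein gene (28.6 kb). HEB sites lay within 100 kb of 4 of the 33, near the share of all protein-coding genes (12.0%).

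H3K27me3 was at the start, or at a gene end, of 8 of these 33 genes, where 28.9% of all protein-coding genes had it, so this count lay near the background. Des, for the muscle intermediate filament desmin, was covered over 100% of its length at a highest fold of 2.36, with no active mark. Myocd, for the SRF coactivator myocardin, was covered over 35.4%, with a highest fold of 2.63, no H3K4me3 and weak H3K27ac (highest fold 2.11). Kcnmb1, a potassium channel subunit gene of smooth muscle, had H3K27me3 over 8.42% and no active mark. Myl9, for a smooth muscle myosin light chain, had H3K27me3 over 11.2% and an H3K4me3 peak with a fold of 3.00, without H3K27ac. The other 4 had H3K27me3 over 4.87% of the gene or less and an H3K4me3 peak at a start or gene end: Itga8 (highest H3K4me3 fold 14.7), Synm (7.86), Tpm3 (34.5) and Ltbp2 (10.3). These 4 also had H3K27ac, which lay at a start or gene end in Tpm3 and Ltbp2 (highest H3K27ac folds 7.94 and 7.61). In Itga8 and Synm it lay elsewhere on the gene (4.77 and 3.92).

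Marker genes were used to check the labelled cell type. H3K27ac lay over all 3 basal epithelial genes (Krt5, Krt14 and Trp63, with highest folds of 4.92, 6.23 and 7.08). It also lay over all 4 luminal or general epithelial genes (Krt8, Krt18, Epcam and Cdh1, 5.24 to 5.73). Of all protein-coding genes, 63.2% had H3K27ac. At Trp63 neither H3K27ac nor H3K4me3 (highest fold 4.31) lay within 1 kb of a start or gene end. The highest H3K27ac fold at Cald1 (5.49) lay within the range of the 7 epithelial genes, and that at Acta2 (4.07) lay below it. H3K27me3 lay over 83.9% of Krt5, 14.2% of Epcam, 7.54% of Krt14 and 2.38% of Cdh1. All 3 marks were thus called at 4 of these 7 genes, where 11.5% of all protein-coding genes had all 3.

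Markers of other cell types were not free of active marks. The endothelial adhesion gene Pecam1 had H3K27ac with a highest fold of 7.18, above all 7 epithelial genes, a weak H3K4me3 peak (2.08) and no H3K27me3. Of 3 fibroblast genes, Pdgfra, a growth factor receptor gene, had H3K27ac (2.95), H3K4me3 (13.6) and H3K27me3 over 4.93% of the gene, Dpt had H3K27ac (3.15), H3K27me3 over 0.902% and no H3K4me3, and Lum had no mark. The pan-leukocyte gene Ptprc had H3K27ac (2.49) and H3K4me3 (3.03) away from its start and H3K27me3 over 15.7%. The part of other cells in the members' marks was not tested.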

How the data were processed

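Of the 20 samples (4 each for HEB, H3K27ac, H3K4me3, H3K27me3 and input), 4 deposited peak lists were used, with 1 list for each antibody. Their build is mm10 and SAMtools was used, per the submitters' processing notes. Aligner, peak caller, control and replicate pooling are not given in sources used here. Each histone mark list is a broadPeak file with the authors' fold enrichment (a ratio) and −log10 q per peak, and a deposited score that was not used. The deposited HEB list gives positions alone, named as a replicate consensus with a minimum overlap of 2.

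Peaks were joined to RefSeq genes (GRCm38.p6) with Python 3.11.15 and pandas 2.3.3, at 1 bp or more. Starts and strand came from the promoter table, and both gene ends were used for genes without an entry. A percentile counts the values below and 0.5 of the ties. The overlap code was tested on simulated intervals. The members and gene lists were chosen with earlier results of these data known. All 10 members are named, and of the 33 related genes the 4 with the longest H3K27ac cover and those with H3K27me3 at a start or gene end. Alternatives changed the peak threshold (−log10 q of at least 5, or the median fold), windows, overlap and motifs. Counting CpGs was chosen after the data were seen.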

Additional observations from a re-analysis of the deposited data

How the results depend on the processing

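Of 35 values under other settings, 24 stayed within 1.5 times the reported count and 11 did not. With peaks at or above the median fold of their list, H3K4me3 was at 2 members over the gene and at 2 at the start (Cnn2 and Cald1), against 6 and 4. H3K27me3 over the gene was at 3 members with a −log10 q of at least 5. The 152 H3K27ac peaks within 100 kb were 78 with a −log10 q of at least 5, 84 with those at or above the median fold and 93 within 50 kb. HEB sites near members were 1 within 10 kb, 1 within 50 kb and 1 when each site was given to its nearest gene, against 3. The CArG box was in 4 genes with 1 mismatch allowed, and CAGCTG or CAGGTG in 3, against 1 and 6. Smaller windows or stricter peaks leave fewer features to count by construction. No paired analysis was possible because there is 1 list per antibody, and for the same reason no replicate could be left out.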

Other observations

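Genes that mark other contractile cells were mixed in their chromatin. Of 3 genes of pericytes and vascular smooth muscle, Pdgfrb had H3K27ac (highest fold 4.55) and H3K4me3 (17.1) with no H3K27me3. Notch3 and Rgs5 had H3K27ac away from a start or gene end (highest folds 2.58 and 5.08). Both had H3K27me3 at a start or gene end, over 21.4% and 13.5% of the gene. Notch3 also had H3K4me3 there (highest fold 4.43), and Rgs5 had no H3K4me3. The 3 skeletal muscle genes had no H3K27ac and carried H3K27me3: Acta1, the skeletal muscle actin gene, and Myod1 over 100% of the gene at highest folds of 3.62 and 2.77, and Ckm, the muscle creatine kinase gene, over 68.3% at 1.81. Ckm also had H3K4me3 away from a start or gene end (highest fold 2.17), and Acta1 and Myod1 had no H3K4me3. Acta1 and Actg2, both muscle actin genes, thus had H3K27me3 without H3K27ac, at highest folds of 3.62 and 2.01.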
